A study of Mus musculus with 24 samples.

Results

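Base excision repair removes oxidized or otherwise damaged DNA bases, and single-strand break repair seals the nicks that this process and oxidants leave behind. The 9 genes described here, Apex1, Polb, Poll, Lig3, Xrcc1, Parp1, Parp2, Tdp1 and Aptx, encode core enzymes and partners of both pathways, and they were chosen as a fixed list of names. Any array probe whose annotated gene name was 1 of these names or an older synonym was taken, which gave 16 probes of the 41174 probes on the array other than controls and 9 of the 19146 genes those probes name. Apex1, Xrcc1 and Aptx had 1 probe each, Polb had 3 and the other genes had 2.

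RNA came from immortalized Ku70-/- mouse embryonic fibroblasts (MEFs), which are without the Ku70 subunit of the non-homologous end joining machinery, and every group including the controls carried this deletion. In array set 1 (15 arrays) untreated control cells were compared with cells given 20 mM of the oxidizing agent KBrO3 for 1 hr and left to repair for 3 hr (KBrO3, 4 hr) or 23 hr (KBrO3, 24 hr), and with cells that in addition received 150 μM bisphenol A (BPA) from 1 hr before KBrO3 until harvest (co-exposure, 4 and 24 hr). In array set 2 (9 arrays) separate untreated controls were compared with cells given 150 μM BPA alone and sampled at 4 or 24 hr. By the study's Methods these times count from the start of KBrO3 in parallel cells, and BPA-only exposure lasted 1 hr longer. Each group had 3 arrays with 1 replicate RNA each. The set 1 controls were labeled 4 hr and the set 2 controls carried no time, so that no control labeled 24 hr was compared. Cells with intact Ku70 were not compared, so the signal of the deleted gene, Xrcc6, could not check the labels. Its 1 probe was well above background on all 24 arrays, at levels of -0.60 to 0.73 on the log2 scale used below, and whether it lies in the deleted part was not tested, so the genotype is given as labeled.

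In base excision repair a glycosylase removes the damaged base, Apex1 cuts the backbone at the empty site, a DNA polymerase fills the gap, and a ligase closes the strand. The poly(ADP-ribose) polymerases Parp1 and Parp2 detect strand breaks and mark them with poly(ADP-ribose), which recruits the scaffold Xrcc1 with its partner DNA ligase 3 (Lig3). Tdp1 and Aptx clean blocked DNA ends, the former by releasing tyrosine residues left by topoisomerase I and the latter by removing adenylate left by an aborted ligation. KBrO3 is a standard source of oxidized guanine, which makes these genes of direct interest in cells exposed to it.

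The probes are single 60-base sequences, and what a probe pair shares bears on how its values should be read. The 2 Parp1 probes start 20 bases apart in the transcript and have 40 bases in common, given in capitals, so that they are close to 1 measurement of Parp1 rather than 2. The first lies at chr1:180580265-180580563 and the second at chr1:180580285-180580583 on the plus strand (mouse build mm7, as the scanner files of set 1 give it), and each covers 299 genomic bases, so it bridges an exon junction.
Parp1 A_51_P314273: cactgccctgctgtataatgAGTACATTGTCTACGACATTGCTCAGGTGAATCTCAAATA
Parp1 A_51_P314277: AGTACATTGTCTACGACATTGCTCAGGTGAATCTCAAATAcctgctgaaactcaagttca

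The 2 Parp2 probes share no base run of this kind, start 214 genomic bases apart on chromosome 14 and also bridge exon junctions, covering 140 and 232 genomic bases. They are shown because they are separate readings of the gene, unlike those of Parp1.
Parp2 A_51_P471630: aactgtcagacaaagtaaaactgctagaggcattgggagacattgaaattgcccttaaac
Parp2 A_52_P227445: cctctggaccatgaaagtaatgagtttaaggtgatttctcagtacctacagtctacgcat

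The 3 Polb probes also differ in what they read, and only the Tdp1 probes start farther apart (18556 genomic bases). Probe A_52_P612693 (chr8:21422405-21422464, minus strand, mm7) was designed on the RefSeq transcript of Polb. Probe A_52_P577910 starts 594 bases from it and was designed on another Polb cDNA, and probe A_52_P129140, 7909 bases from the first, on a cerebellum cDNA clone that the array annotation assigns to Polb but describes as unclassifiable. The first of these is given whole and the others by their first 30 bases, since they moved apart in the data.
Polb A_52_P612693: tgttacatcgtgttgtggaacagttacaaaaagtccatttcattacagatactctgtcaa
Polb A_52_P577910: tatgcacacacatatattaaatgagtaagt
Polb A_52_P129140: agacattagaaggtaaatatgatagaagtc

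Apex1 and Xrcc1, each read by 1 probe, are shown because their differences from control ran in opposite directions at 4 hr. The Apex1 probe lies at chr14:46260705-46260764 and the Xrcc1 probe at chr7:21361272-21361331, both on the plus strand of mm7. Of the 16 probes, 12 carry an accession that RefSeq gives for the same gene and 0 one of another gene, and exon or UTR annotation of mm7 was not used here.
Apex1 A_51_P473576: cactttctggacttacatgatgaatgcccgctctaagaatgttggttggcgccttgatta
Xrcc1 A_51_P343900: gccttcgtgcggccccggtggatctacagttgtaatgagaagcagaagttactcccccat

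Levels are given as log2 signal minus the 75th percentile of the same array, so a level of 0 means a signal equal to that percentile and a difference of 1 means 2-fold. A probe was called when its Benjamini-Hochberg adjusted p from limma was below 0.05 over all probes tested in the set, 27310 in set 1 and 31806 in set 2, and all 16 probes were tested in both. The spots well above background made up 57.7% to 68.1% of an array in set 1 and 76.4% to 79.4% in set 2, no member probe was saturated, and 15 of them were well above background on all 24 arrays. The remaining 1, Tdp1 probe A_52_P149451, was near background. The residual SD of the member probes had a median of 0.0904 in set 1 and 0.284 in set 2, so that a difference seen with KBrO3 could be resolved far more finely than one with BPA alone. Of 11 fibroblast markers, 10 were well above background on all 24 arrays and Thy1 on 19. Of 19 markers of epithelial, endothelial, blood and macrophage, skeletal muscle and neural cells, the keratins Krt5 and Krt14, the macrophage marker Cd68 and the muscle actin Acta1 were well above background on all 24 arrays. The endothelial marker Pecam1, the leukocyte marker Ptprc and the muscle marker Des were so on 0, and the other 12, among them Kdr (23) and Sox10 (22), on 3 to 23 arrays. Each of the 19 stayed below the 75th percentile on every array, with Acta1 reaching the highest level, -0.33.

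At 4 hr most of these repair genes were below control after KBrO3, and at 24 hr most were above it. With KBrO3 at 4 hr, 12 of the 16 probes were called lower and 1 higher, where 35.8% of all probes tested were called lower and 36.3% higher (72.1% either way). With co-exposure at 4 hr, 10 were lower and 3 higher, against 37% and 41.6% of all probes (78.6% either way). The median difference of the 16 probes from control was -0.56 with KBrO3 and -0.41 with co-exposure, whereas the median over all probes was 0.06 and 0.08. With normexp background correction the median over all probes was -0.46 and -0.44, and the median of the 16 probes under it was not computed. In bulk RNA, fewer cells of a type and less RNA per cell cannot be told apart.

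At 24 hr the balance was the other way. With KBrO3, 11 of the 16 probes were higher than control and 2 lower, against 32.1% and 34% of all probes tested (66.2% either way). With co-exposure, 12 were higher and 2 lower, against 32.9% and 37% (69.9% either way). The median difference was 0.37 with KBrO3 and 0.58 with co-exposure, beside -0.02 and -0.07 over all probes. By the stricter rule in the study's Methods, a Bonferroni-adjusted p below 0.01 and a change beyond 1.5-fold, 4 probes passed with KBrO3 and 4 with co-exposure at 4 hr, where 28.8% and 32.6% of all probes did. At 24 hr 3 and 6 passed, against 16.8% and 20.8%. The 4 comparisons share the same 3 control arrays, labeled 4 hr, so they are not independent of each other. Untreated levels also differed between the sets on some probes. On Parp1 A_51_P314273 the mean was 0.76 in set 1 controls, 1.40 in set 2 controls and 1.43 with KBrO3 at 24 hr. On Apex1 the same means were 2.73, 2.65 and 3.37. What set or time contributed to this was not tested. The summed signal of the 11 fibroblast markers moved with time as well, and their part in these results was not tested. It lay between 1860 and 1970 in the controls, between 1690 and 1780 with KBrO3 at 4 hr, between 1340 and 1370 with co-exposure at 4 hr, and between 712 and 799 and between 499 and 579 in the same treatments at 24 hr (in units of the 75th percentile signal).

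Markers of other cell types also differed between groups, at sums far below those of the fibroblast markers, and their part was not tested either. In the same units the 4 blood and macrophage markers summed to 0.148 to 0.191 in the controls, 0.626 to 0.672 with KBrO3 and 0.461 to 0.468 with co-exposure at 4 hr, and 0.299 to 0.33 and 0.408 to 0.5 at 24 hr. The 3 endothelial markers summed to 0.032 to 0.0455 in the controls, 0.0869 to 0.0947 and 0.0907 to 0.0917 at 4 hr, and 0.0871 to 0.0971 and 0.0516 to 0.0534 at 24 hr. Sums of both lists were thus above the controls in all 4 treated groups. The 3 neural markers summed to 0.0506 to 0.0581 in the controls, 0.139 to 0.161 and 0.252 to 0.265 at 4 hr, and 0.0881 to 0.212 and 0.0629 to 0.073 at 24 hr, which is highest with co-exposure at 4 hr. The 4 skeletal muscle markers summed to 0.461 to 0.578 in the controls, 0.449 to 0.567 and 0.596 to 0.746 at 4 hr, and 0.222 to 0.259 and 0.0656 to 0.169 at 24 hr. The 5 epithelial markers summed to 0.186 to 0.242, 0.237 to 0.324, 0.265 to 0.288, 0.172 to 0.236 and 0.142 to 0.176 in the same order.

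**Figure D1:**
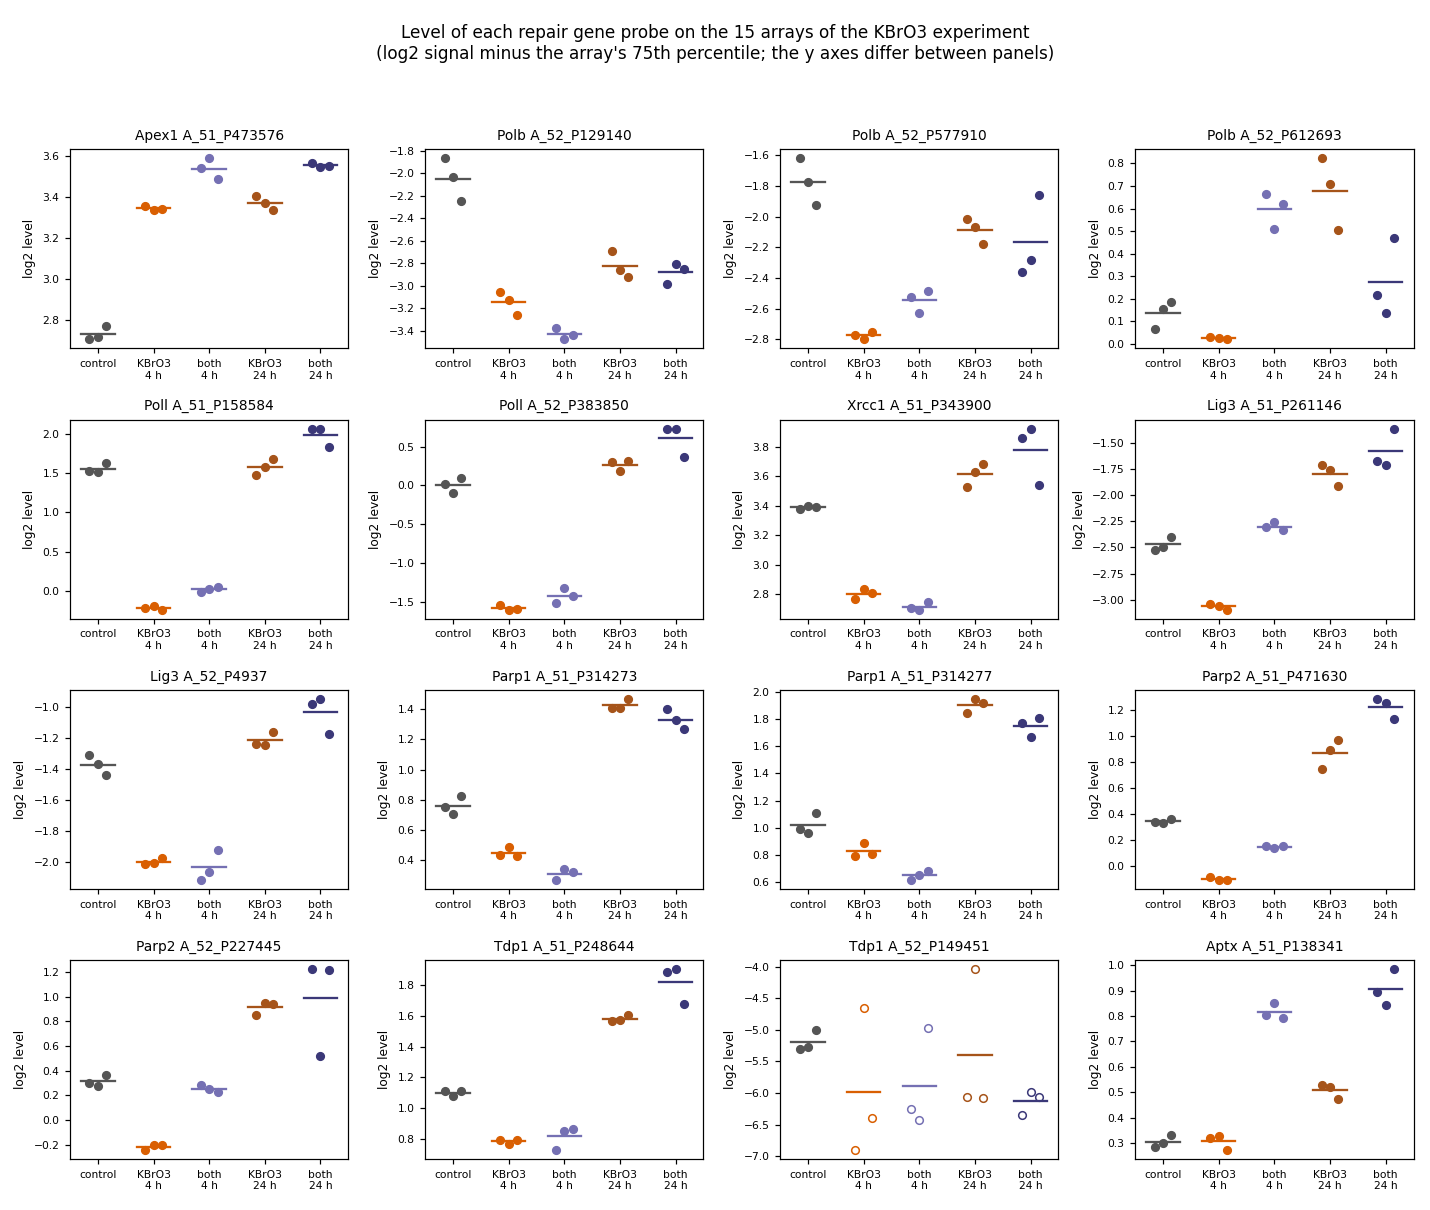
Levels of the 16 probes (log2 signal minus the array's 75th percentile) on the 15 arrays of set 1, in 1 panel per probe, with each dot 1 array and each bar the mean of 3. Open dots mark groups in which the probe was not well above background on all 3 arrays, which happened only for Tdp1 A_52_P149451, and most panels show the lowest levels at 4 hr and the highest at 24 hr.

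Apex1, the endonuclease that cuts at abasic sites, was the 1 gene that was higher in all 4 treated groups of set 1. Its level was 2.70, 2.71 and 2.77 on the control arrays, 3.35, 3.33 and 3.34 with KBrO3 at 4 hr, and 3.54, 3.59 and 3.48 with co-exposure at 4 hr. By 24 hr the level was 3.40, 3.37 and 3.33 with KBrO3 and 3.56, 3.54 and 3.55 with co-exposure. All 12 treated arrays lay above the 3 controls, and every co-exposed array lay above every KBrO3 array of the same time. The rise over control was 1.53-fold (log2 0.61 ± 0.04 SE, adjusted p = 1.2e-08) with KBrO3 at 4 hr and 1.56-fold at 24 hr, and 1.75-fold and 1.77-fold with co-exposure. From 4 to 24 hr Apex1 differed by 0.03 with KBrO3 (adjusted p = 0.551) and by 0.02 with co-exposure (adjusted p = 0.697). When arrays were scaled to their median in place of the 75th percentile, both were called higher at 24 hr (0.17, adjusted p = 0.0321, and 0.48, adjusted p = 2.43e-05).

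Poll encodes DNA polymerase lambda, a gap-filling polymerase that also works in end joining, and it showed the lowest values relative to control of the 9 genes. Probe A_51_P158584 read 1.53, 1.51 and 1.63 in controls, -0.22, -0.19 and -0.23 with KBrO3 at 4 hr, and -0.0039, 0.03 and 0.06 with co-exposure at 4 hr. By 24 hr the level was 1.48, 1.58 and 1.68 with KBrO3 and 2.07, 2.06 and 1.83 with co-exposure. The 4 hr arrays stood well apart from all others, the KBrO3 arrays at 24 hr overlapped the controls, and the co-exposed arrays at 24 hr lay above both. At 4 hr the signal was 3.40-fold below control with KBrO3 (log2 -1.77 ± 0.07 SE, adjusted p = 1.9e-10) and 2.88-fold below with co-exposure (adjusted p = 5.84e-10). The second Poll probe, A_52_P383850, starts 402 genomic bases from the first and was 3.00-fold and 2.69-fold below control in the same groups. At 24 hr with KBrO3 the first probe differed from control by 0.03 (adjusted p = 0.734), whereas the second was called 1.20-fold higher (adjusted p = 0.0297), a call that was lost with slide as a random block (adjusted p = 0.301) and without control replicate 1 or 2 or KBrO3 replicate 1 or 3 at 24 hr. Under normexp background correction these calls changed places, with the first probe at 0.30 and called (adjusted p = 0.0380) and the second not called (adjusted p = 0.0694). With co-exposure at 24 hr both were called higher, by 1.35-fold and 1.52-fold.

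Polb encodes DNA polymerase beta, the main gap-filling enzyme of short-patch base excision repair, and its 3 probes did not move alike. Probe A_52_P612693, on the RefSeq transcript, read 0.07, 0.16 and 0.19 in controls, 0.03, 0.02 and 0.02 with KBrO3 at 4 hr, and 0.66, 0.51 and 0.62 with co-exposure at 4 hr. It read 0.82, 0.71 and 0.50 with KBrO3 at 24 hr and 0.22, 0.14 and 0.47 with co-exposure at 24 hr. Co-exposure at 4 hr and KBrO3 at 24 hr lay wholly above the controls and KBrO3 at 4 hr wholly, though slightly, below them, while co-exposure at 24 hr overlapped them. The rise of the first pair over control was 1.38-fold (log2 0.46 ± 0.09 SE, adjusted p = 5.67e-04) and 1.46-fold (adjusted p = 2.16e-04). The other groups were not called, with adjusted p = 0.294 for KBrO3 at 4 hr and 0.197 for co-exposure at 24 hr, although the latter, 0.14 here, was 0.46 and called when arrays were scaled to their median (adjusted p = 3.59e-04).

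The other Polb probes were below control in all 4 treated groups. Probe A_52_P129140 read -1.87, -2.04 and -2.25 in controls and -3.06, -3.12 and -3.26 with KBrO3 at 4 hr, 2.14-fold lower (log2 -1.10 ± 0.10 SE, adjusted p = 4.04e-07). With co-exposure at 4 hr it read -3.38, -3.48 and -3.43, 2.60-fold lower than control. At 24 hr it was 1.71-fold lower with KBrO3 and 1.78-fold lower with co-exposure. Probe A_52_P577910 was 2.00-fold lower with KBrO3 and 1.71-fold lower with co-exposure at 4 hr. Its 24 hr differences were smaller, 1.24-fold and 1.32-fold lower, and with slide as a random block both calls were lost (adjusted p = 0.275 and 0.0563). Scaling to the median lost both as well and reduced the differences from -0.32 to -0.17 and from -0.40 to -0.08 (adjusted p = 0.257 and 0.595). The call with KBrO3 was also lost without control replicate 1 or 2 or KBrO3 replicate 2 or 3 at 24 hr. At 24 hr with KBrO3 the 3 probes ranged from -0.77 to 0.54 on the log2 scale, so no single value stands for Polb.

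Xrcc1, the scaffold that holds Lig3 and binds other enzymes of the pathway, fell at 4 hr and was higher at 24 hr. It read 3.38, 3.40 and 3.39 in controls, 2.77, 2.83 and 2.81 with KBrO3 at 4 hr and 2.70, 2.70 and 2.75 with co-exposure at 4 hr. Its levels at 24 hr were 3.53, 3.63 and 3.69 with KBrO3 and 3.86, 3.92 and 3.54 with co-exposure. All 6 arrays at 4 hr lay below the controls and all 6 at 24 hr above them. The signal fell to 66.6% of control with KBrO3 (log2 -0.59 ± 0.08 SE, adjusted p = 2.74e-05) and to 62.7% with co-exposure (adjusted p = 7.15e-06). With normexp background correction of the raw signal neither fall was called (adjusted p = 0.115 and 0.0559). The rise at 24 hr was 1.17-fold with KBrO3 (adjusted p = 0.0269) and 1.31-fold with co-exposure (adjusted p = 9.67e-04). The former was lost with slide as a random block (adjusted p = 0.191) and on leaving out any of the 3 control arrays or KBrO3 replicate 2 or 3 at 24 hr.

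Lig3, the ligase of short-patch and single-strand break repair, was read by 2 probes that start 350 genomic bases apart. Probe A_52_P4937 read -1.31, -1.37 and -1.44 in controls, -2.01, -2.00 and -1.98 with KBrO3 at 4 hr and -2.11, -2.06 and -1.92 with co-exposure at 4 hr, without overlap with the controls. These were falls of 1.54-fold (log2 -0.62 ± 0.07 SE, adjusted p = 2.70e-06) and 1.58-fold. At 24 hr it was 1.12-fold above control with KBrO3, which was not called (adjusted p = 0.0523), and 1.26-fold above with co-exposure (adjusted p = 6.20e-04). The co-exposure difference turned sign under normexp background correction (-0.06, adjusted p = 0.751), and the KBrO3 difference was called with median scaling (0.31, adjusted p = 0.0218).

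Lig3 probe A_51_P261146 also fell with KBrO3 at 4 hr but was not called with co-exposure. It read -2.52, -2.49 and -2.40 in controls, -3.04, -3.06 and -3.09 with KBrO3 at 4 hr, and -2.31, -2.26 and -2.34 with co-exposure at 4 hr. Accordingly KBrO3 alone lowered it 1.51-fold (log2 -0.59 ± 0.08 SE, adjusted p = 3.34e-05), whereas the co-exposed arrays all lay slightly above the controls, by 0.17 (adjusted p = 0.0772). The 24 hr levels were -1.71, -1.76 and -1.91 with KBrO3 and -1.67, -1.71 and -1.36 with co-exposure, 1.60-fold and 1.85-fold above control. With normexp background correction the KBrO3 difference at 24 hr was -0.17 and neither 24 hr call stood (adjusted p = 0.595 and 0.904).

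Parp1, the main sensor of strand breaks, fell modestly at 4 hr and rose at 24 hr on both of its overlapping probes. Probe A_51_P314277 read 0.99, 0.96 and 1.11 in controls, 0.79, 0.89 and 0.80 with KBrO3 at 4 hr and 0.61, 0.65 and 0.68 with co-exposure at 4 hr. By 24 hr the level was 1.85, 1.95 and 1.92 with KBrO3 and 1.77, 1.67 and 1.81 with co-exposure. All 6 arrays at 24 hr lay above the controls and all 6 at 4 hr below them. At 4 hr it was 1.14-fold lower than control with KBrO3 (log2 -0.19 ± 0.05 SE, adjusted p = 0.00615) and 1.30-fold lower with co-exposure (adjusted p = 3.88e-05). At 24 hr it was 1.85-fold higher with KBrO3 (adjusted p = 2.78e-08) and 1.66-fold higher with co-exposure (adjusted p = 1.14e-07). Probe A_51_P314273 gave 1.24-fold and 1.36-fold lower at 4 hr and 1.59-fold and 1.48-fold higher at 24 hr. With normexp background correction the 4 hr fall with KBrO3 was not called on A_51_P314277 (adjusted p = 0.732) or A_51_P314273 (adjusted p = 0.0900), and that with co-exposure was not called on A_51_P314277 (-0.22, adjusted p = 0.118). Scaling to the median also lost the KBrO3 call on A_51_P314277 (adjusted p = 0.0728).

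Parp2, the second DNA-dependent poly(ADP-ribose) polymerase, followed a like course. Probe A_51_P471630 read 0.34, 0.33 and 0.36 in controls, -0.09, -0.11 and -0.10 with KBrO3 at 4 hr and 0.15, 0.14 and 0.16 with co-exposure at 4 hr. It read 0.75, 0.89 and 0.96 with KBrO3 at 24 hr and 1.28, 1.25 and 1.13 with co-exposure at 24 hr, and the 5 groups did not overlap. It was 1.36-fold below control with KBrO3 at 4 hr (log2 -0.44 ± 0.05 SE, adjusted p = 1.05e-05) and 1.14-fold below with co-exposure, a call that was lost with slide as a random block (adjusted p = 0.0662) and with normexp background correction (-0.11, adjusted p = 0.249). At 24 hr it was 1.44-fold above control with KBrO3 and 1.84-fold above with co-exposure (adjusted p = 2.52e-08). Probe A_52_P227445 was 1.44-fold lower with KBrO3 at 4 hr, and with co-exposure at 4 hr its difference of -0.06 was not called (adjusted p = 0.714). At 24 hr it was called 1.52-fold and 1.60-fold higher, although co-exposure replicate 2, at 0.52, stood apart from 1.22 and 1.21 on the other 2 arrays. Without that array its excess over KBrO3 alone at 24 hr, 0.07 and not called, became 0.31 (adjusted p = 0.000218).

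Among the end-processing enzymes, Tdp1 followed the same course and Aptx did not. For Tdp1, probe A_51_P248644 read 1.11, 1.08 and 1.11 in controls, 0.79, 0.77 and 0.79 with KBrO3 at 4 hr, and 0.72, 0.85 and 0.86 with co-exposure at 4 hr. Its levels at 24 hr were 1.57, 1.58 and 1.61 with KBrO3 and 1.89, 1.91 and 1.68 with co-exposure. The falls at 4 hr were 1.25-fold (log2 -0.32 ± 0.06 SE, adjusted p = 3.28e-04) and 1.22-fold, and the rises at 24 hr 1.40-fold and 1.65-fold (adjusted p = 2.70e-07 for the latter). With normexp background correction neither fall was called (adjusted p = 0.231 and 0.352). The dim Tdp1 probe, A_52_P149451, was not called in any of the 13 comparisons as fitted and was well above background on 1 of 3 arrays or fewer in each treated group of set 1. With co-exposure at 24 hr that was 0 of 3, and the interval of the difference from control ran from -2.33 to 0.44 (adjusted p = 0.203), so no fold is given. With normexp background correction the probe was called lower than control at 24 hr with KBrO3 and with co-exposure (adjusted p = 0.0200 and 0.0192), and without KBrO3 replicate 2 it was called lower at 4 hr (adjusted p = 0.0431).

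Aptx, aprataxin, was highest in the co-exposed groups at both times. It read 0.29, 0.30 and 0.33 in controls, 0.32, 0.33 and 0.27 with KBrO3 at 4 hr and 0.80, 0.85 and 0.79 with co-exposure at 4 hr. The 24 hr levels were 0.53, 0.52 and 0.47 with KBrO3 and 0.89, 0.84 and 0.98 with co-exposure. The KBrO3 arrays at 4 hr lay among the controls, with a difference of 0.00 (95% confidence interval -0.09 to 0.09, adjusted p = 0.966). Co-exposure was 1.42-fold above control at 4 hr (log2 0.51 ± 0.04 SE, adjusted p = 1.9e-07) and 1.52-fold at 24 hr (adjusted p = 6.48e-08), and KBrO3 alone 1.15-fold at 24 hr (adjusted p = 9.23e-04). All 3 calls were lost in the fit of all 24 arrays with 1 spread (adjusted p = 0.140, 0.1003 and 0.614). That fit also lost the 4 hr calls against control of both Parp1 probes in both treatments and of Parp2 A_51_P471630 with co-exposure, and the 24 hr calls of Lig3 A_52_P4937 with co-exposure and of Polb A_52_P577910, Poll A_52_P383850 and Xrcc1 with KBrO3 (adjusted p from 0.0758 to 0.508).

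**Figure D2:**
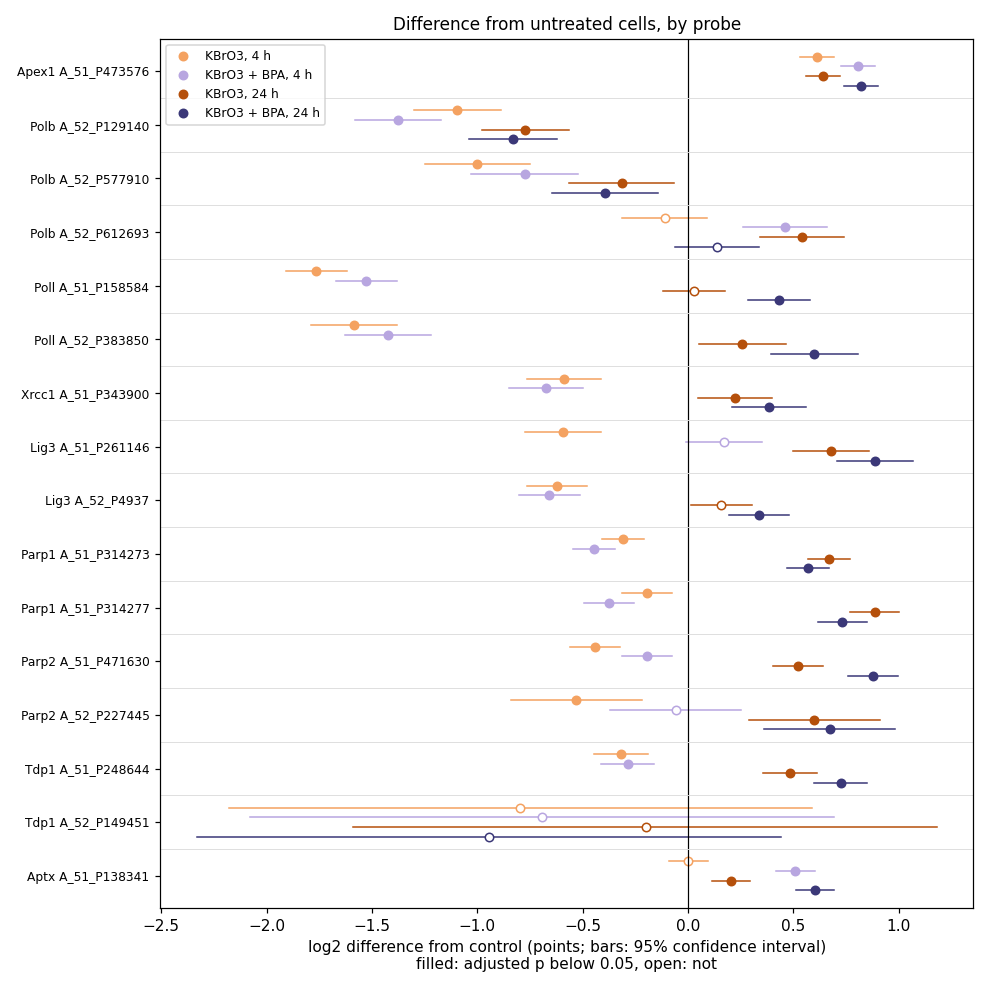
Difference of each probe from the 3 control arrays of set 1 (log2, x axis), with 95% confidence intervals and 4 treated groups of 3 arrays per probe. Filled points were called, and Poll stands farthest to the left at 4 hr while Apex1 is to the right of 0 in all 4 groups.

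Co-exposure was next compared with KBrO3 alone. At 4 hr these groups shared no slide, so slide and the addition of BPA cannot be told apart there. At 4 hr, 10 of the 16 probes were called different between co-exposure and KBrO3 alone, where 57.8% of all probes tested were. Of these, 7 were higher and 3 lower, against 29.2% and 28.6%, but when arrays were scaled to their median 3 were higher and 3 lower. That scaling moved the median over all probes in this comparison from 0.02 to -0.12. At 24 hr, 9 were called, 7 higher and 2 lower, against a background of 46.7%, with 23.1% higher and 23.7% lower. With all 24 arrays in 1 fit, 2 were called at 4 hr, both higher, and at 24 hr 0 higher and 1 lower. The median difference of the 16 probes was 0.18 at 4 hr and 0.17 at 24 hr, beside 0.02 and -0.04 over all probes. By the stricter Bonferroni rule 0 of the 16 probes passed at either time, where 4.99% and 5.8% of all probes did. The largest difference among the members was that of Lig3 A_51_P261146 at 4 hr, 1.70-fold (log2 0.76 ± 0.08 SE, adjusted p = 1.34e-05). With normexp background correction it was not called (0.46, adjusted p = 0.378). The other Lig3 probe, A_52_P4937, did not share it, with a difference of -0.04 at 4 hr that was not called (adjusted p = 0.662), so the 2 probes of this gene disagreed.

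Probes of 4 genes were higher with co-exposure than with KBrO3 alone at both times, namely Apex1, Aptx, Parp2 A_51_P471630 and Poll A_51_P158584. Of all probes, 29.2% were called higher at 4 hr and 23.1% at 24 hr, and the share higher at both was not counted. Aptx was 1.42-fold higher at 4 hr (log2 0.51 ± 0.04 SE, adjusted p = 1.56e-06) and 1.32-fold higher at 24 hr (adjusted p = 8.92e-06). Apex1 was 1.14-fold higher at both times (adjusted p = 8.62e-04 and 0.00145). Parp2 A_51_P471630 was 1.19-fold higher at 4 hr and 1.28-fold higher at 24 hr. The other Parp2 probe, A_52_P227445, was 1.39-fold higher at 4 hr (adjusted p = 0.0139), a call lost with median scaling, normexp, all 24 arrays in 1 fit and slide as a random block (adjusted p from 0.0587 to 0.115). Poll A_51_P158584 was 1.18-fold and 1.32-fold higher. The second Poll probe, A_52_P383850, was not called at 4 hr (0.16, adjusted p = 0.170) and was 1.27-fold higher at 24 hr (adjusted p = 0.0105). In these 4 probes the 3 co-exposed arrays lay above the 3 KBrO3 arrays at each time. They were picked by their calls, and the share of all probes without overlap was not counted. When arrays were scaled to their median, the 4 hr calls of Apex1 (0.05, adjusted p = 0.543), Parp2 (0.11, adjusted p = 0.417) and Poll (0.10, adjusted p = 0.471) were lost. The Aptx calls were kept under that scaling and lost in the fit of all 24 arrays (adjusted p = 0.222 and 0.404), which also lost those of Apex1, Parp2 and Poll at both times. Under normexp the calls of Apex1 (adjusted p = 0.638 and 0.534) and Poll (adjusted p = 0.0979 and 0.0502) were lost at both times and that of Parp2 at 4 hr (adjusted p = 0.0919).

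Parp1 went the other way, slightly. Its probe A_51_P314277 was 1.13-fold lower with co-exposure than with KBrO3 at 4 hr (log2 -0.18 ± 0.05 SE, adjusted p = 0.0130) and 1.11-fold lower at 24 hr (adjusted p = 0.0359). The overlapping probe A_51_P314273 was 1.10-fold lower at 4 hr (adjusted p = 0.0208) and was not called at 24 hr (-0.10, adjusted p = 0.103). Both 4 hr calls were lost with slide as a random block (adjusted p = 0.482 and 0.286), all 3 calls were lost with normexp (adjusted p from 0.392 to 0.533) and in the fit of all 24 arrays (adjusted p from 0.627 to 0.729), and at 24 hr the difference on A_51_P314277 was 0.02 when arrays were scaled to their median. The A_51_P314277 call was lost without KBrO3 replicate 2 at 4 hr, and at 24 hr without KBrO3 replicate 2 or 3 or co-exposure replicate 1 or 2. The A_51_P314273 call was lost without KBrO3 replicate 2 or co-exposure replicate 1 at 4 hr. Xrcc1 was not called at either time, with a difference of -0.09 at 4 hr (95% confidence interval -0.26 to 0.09) and of 0.16 at 24 hr (-0.01 to 0.34). At 24 hr it was called higher with slide as a fixed block (0.24, adjusted p = 0.00105) or a random block (0.20, adjusted p = 0.00700), with median scaling (0.33, adjusted p = 0.0379) and without co-exposure replicate 3 (0.28, adjusted p = 4.39e-04).

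Polb A_52_P612693 was the 1 probe called in opposite directions at the 2 times. Co-exposure was 1.49-fold above KBrO3 at 4 hr (log2 0.57 ± 0.09 SE, adjusted p = 2.51e-04) and 1.32-fold below it at 24 hr (adjusted p = 0.00326), with no overlap of arrays at either time. The change of the difference from 4 to 24 hr was -0.98 ± 0.13 SE (adjusted p = 8.8e-05). It was also called for Lig3 A_51_P261146 (-0.55 ± 0.12 SE, adjusted p = 0.00204) and Tdp1 A_51_P248644 (0.21 ± 0.08 SE, adjusted p = 0.0484), so for 3 of 16 probes where 54.3% of all probes were called (25.5% higher and 28.7% lower). These were 1 higher and 2 lower, whereas with median scaling, which moved the median over all probes from -0.06 to 0.25, there were 10 higher and 1 lower. The Lig3 call was lost with median scaling (-0.24, adjusted p = 0.112), with normexp background correction (-0.25, adjusted p = 0.894) and with all 24 arrays in 1 fit (adjusted p = 0.0875). Leaving out co-exposure replicate 3 at 24 hr raised this count to 10, and the Tdp1 call was lost with slide as a random block (adjusted p = 0.0728), with normexp (adjusted p = 0.728), with all 24 arrays in 1 fit (adjusted p = 0.313) and on leaving out any of 10 of the 12 arrays compared. In the other Polb probes the co-exposure difference was called for A_52_P129140 at 4 hr, where it was 1.22-fold lower (adjusted p = 0.0240). That call was lost without KBrO3 replicate 1 or 2 or co-exposure replicate 2 or 3 at 4 hr. It was also lost with normexp (-0.15, adjusted p = 0.859) and in the fit of all 24 arrays (adjusted p = 0.299). Polb A_52_P577910 was not called as fitted, but at 24 hr it was called lower with slide as a fixed block (-0.20, adjusted p = 0.0353) and without co-exposure replicate 3 (-0.23, adjusted p = 0.0313).

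**Figure D3:**
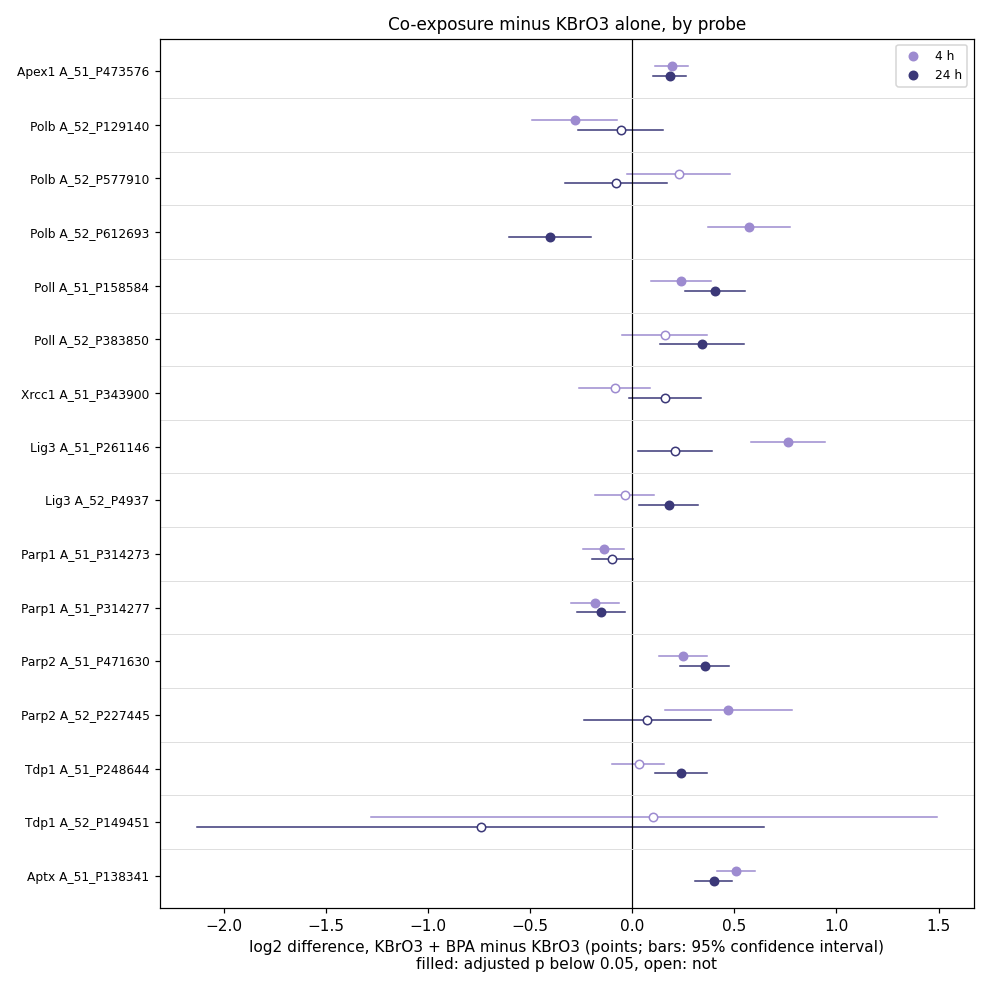
Co-exposure minus KBrO3 alone for each probe (log2, x axis), with 95% confidence intervals and 3 arrays per group at 4 hr (light) and 24 hr (dark). Filled points were called, and Polb A_52_P612693 has its 4 hr point at 0.57 and its 24 hr point at -0.40.

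Between 4 and 24 hr most probes rose in both treatments, although no slide held arrays of both times of 1 treatment. With KBrO3, 14 of the 16 probes were higher at 24 than at 4 hr and 0 lower, where 33% of all probes tested were higher and 42.3% lower (75.3% either way). With co-exposure, 12 were higher and 1 lower, against 32.8% and 48.4% (81.2% either way). The median rise of the 16 probes was 0.81 with KBrO3 and 0.86 with co-exposure, beside -0.12 and -0.22 over all probes. By the Bonferroni rule 8 probes passed in each treatment, against 26.7% and 30.1% of all probes, and for the change of the co-exposure difference 0 passed, against 3.84%. Poll changed most, by 3.47-fold and 3.59-fold on its 2 probes with KBrO3 and by 3.89-fold and 4.07-fold with co-exposure. Parp1 A_51_P314277 rose 2.11-fold with KBrO3 and 2.15-fold with co-exposure, Xrcc1 rose 1.75-fold and 2.08-fold, and Lig3 A_52_P4937 rose 1.72-fold and 1.99-fold. The 1 probe lower at 24 hr with co-exposure was Polb A_52_P612693 (-0.32 ± 0.09 SE, adjusted p = 0.00619), and this difference was 0.14 when arrays were scaled to their median. The call was also lost with slide as a fixed block (-0.20, adjusted p = 0.146) or a random block (-0.22, adjusted p = 0.0662) and with normexp background correction (adjusted p = 0.0799). Of the rises, that of Parp2 A_52_P227445 with co-exposure was not called with slide as a fixed block (0.53, adjusted p = 0.114), nor that of Polb A_52_P129140 with KBrO3 with slide as a random block (0.24, adjusted p = 0.156). Normexp background correction ended the calls of Polb A_52_P129140 with KBrO3 (-0.0029, adjusted p = 0.993) and co-exposure (0.15, adjusted p = 0.612), of Polb A_52_P577910 (0.32, adjusted p = 0.343, and 0.10, adjusted p = 0.772), of Lig3 A_51_P261146 with co-exposure (0.50, adjusted p = 0.162) and of Aptx with KBrO3 (adjusted p = 0.0541). In the fit of all 24 arrays the KBrO3 rises of Polb A_52_P129140 (adjusted p = 0.156) and Aptx (adjusted p = 0.583) were not called. Scaling to the median moved the median over all probes from -0.22 to 0.24 in this comparison, so differences are read against that shift.

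Slides and treatments were not crossed in set 1. Of the 5 slides, the second held 1 control array with all 3 KBrO3 arrays at 4 hr, and the fourth held 2 KBrO3 and 2 co-exposure arrays at 24 hr. Within the second slide, all 13 probes called for KBrO3 at 4 hr kept their sign, with Poll A_51_P158584 at -1.84 and Apex1 at 0.57. Within the fourth, all 9 probes called for co-exposure against KBrO3 at 24 hr kept theirs, with Aptx at 0.37 and Polb A_52_P612693 at -0.43. Both within-slide differences reuse arrays that gave the calls, so agreement in sign is no independent check on slide. The share of all probes that kept their sign was not counted. Co-exposure at 4 hr shared no slide with the controls or with KBrO3 at 4 hr, no 24 hr group shared one with the controls, and KBrO3 at 4 hr shared none with KBrO3 at 24 hr, so in those comparisons slide and treatment cannot be told apart. The 4 and 24 hr co-exposure arrays were linked only through KBrO3 arrays at 24 hr, on slides 3 and 4, and with slide as a fixed block 11 of 16 probes were higher at 24 hr and 0 lower. The residuals of arrays on 1 slide correlated at 0.634 in set 1.

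BPA alone gave no called difference in any of the 16 probes at either time. With limma, 0 of 16 were called at 4 hr, where 4.24% of all probes were, and 0 of 16 at 24 hr, where 3.41% were. At an unadjusted p below 0.05 the counts were also 0 and 0, where 18.8% and 18.3% of all probes passed. When all 24 arrays were fitted together with 1 spread, 3 probes were called lower at 4 hr, both Parp1 probes (adjusted p = 0.0352 and 0.0285) and Xrcc1 (adjusted p = 0.0408). One slide held 4 hr BPA arrays (replicates 1 and 3) together with a control (replicate 1, the lowest control on both Parp1 probes). There the Parp1 differences were 0.07 and 0.10, opposite in sign to the pooled -0.67 and -0.75, and that of Xrcc1 was -0.47. BPA replicate 2, the lowest BPA array at 4 hr on both Parp1 probes, was on another slide. The median difference of the 16 probes was -0.13 at 4 hr and 0.10 at 24 hr, beside -0.03 and -0.01 over all probes.

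The set 2 arrays spread widely. Intervals given here are not adjusted for the number of probes, so differences larger than a half-width could also go uncalled. The median half-width of a 95% confidence interval was 0.55 on the log2 scale, or 1.46-fold, against 0.16, or 1.12-fold, in set 1. Parp1 A_51_P314277 had the lowest estimate at 4 hr, -0.75 (-1.55 to 0.05), from levels of 1.33, 0.55 and 0.97 with BPA against 1.05, 1.96 and 2.09 in controls. The BPA arrays overlapped control replicate 1, which lay below the other 2 controls on this probe. Xrcc1 read 2.53, 2.53 and 2.62 with BPA at 4 hr and 3.04, 3.44 and 2.58 in controls, a difference of -0.46 (-0.997 to 0.08). Aptx read -1.22, 0.51 and 0.62 with BPA at 4 hr and 0.17, 0.15 and 0.06 in controls, so that replicate 1 lay below and the others above all 3 controls.

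**Figure D4:**
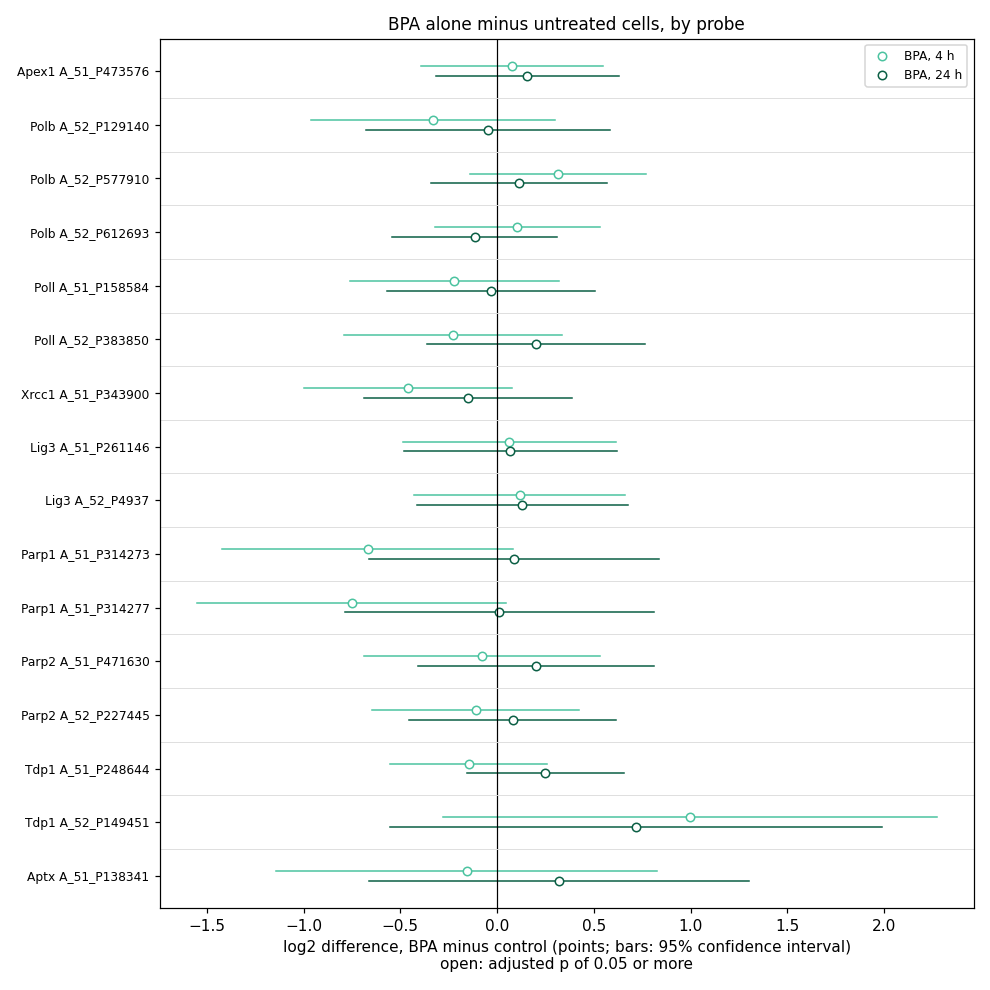
BPA alone minus the 3 controls of set 2 for each probe (log2, x axis), with 95% confidence intervals and 3 arrays per group at 4 hr (light) and 24 hr (dark). All 32 points are open, since no probe was called, and all intervals include 0.

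Whether BPA acted differently with and without KBrO3 was tested as the difference of both effects, over all 24 arrays with 1 variance weight per set. At 4 hr 0 of 16 probes were called, where 8.51% of all probes were, and at 24 hr 0 of 16, where 2.41% were. At an unadjusted p below 0.05 the counts were 1 and 0, where 24.1% and 12.3% of all probes passed. For Aptx, called higher with BPA added to KBrO3, the effect of BPA without KBrO3 minus that with it was -0.66 ± 0.33 SE at 4 hr (adjusted p = 0.225) and -0.08 ± 0.33 SE at 24 hr (adjusted p = 0.987). For Lig3 A_51_P261146 it was -0.70 ± 0.26 SE at 4 hr (adjusted p = 0.108). Without control replicate 1 of set 2, this probe and Parp1 A_51_P314277 were called at 4 hr (adjusted p = 0.0488 and 0.0335).

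Other genes of the pathway were counted from 3 fixed lists, with 1 probe per gene. The glycosylases, which start base excision repair, were lower than control at 4 hr in 8 of 10 tested genes with KBrO3 and higher in 2, where 35.8% of all probes were lower and 36.3% higher. Mbd4, which removes thymine from T:G mismatches, was lowest at -2.14, Ogg1, which removes oxidized guanine, was at -0.74, and Ung, which removes uracil, was highest at 1.01. At 24 hr 3 of the 10 were higher and 3 lower with KBrO3 (all probes 32.1% and 34%), and 7 higher and 2 lower with co-exposure (32.9% and 37%). Against KBrO3 alone, co-exposure at 24 hr was higher in 8 and lower in 1 (23.1% and 23.7%), and Ogg1 differed most, by 0.88 (1.84-fold). The median over the 10 was -0.94 with KBrO3 at 4 hr and -0.02 at 24 hr, beside 0.06 and -0.02 over all probes.

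Of 8 end-processing and poly(ADP-ribose) partner genes, 4 were lower and 2 higher with KBrO3 at 4 hr (35.8% and 36.3% of all probes). Aplf, an accessory factor that binds poly(ADP-ribose), was lowest at -1.60, and Apex2 was highest at 1.22. At 24 hr 3 were higher and 1 lower with KBrO3 (32.1% and 34% of all probes), and 5 higher and 1 lower with co-exposure (32.9% and 37%). Of 13 genes for long-patch synthesis and ligation, 7 were lower and 4 higher with KBrO3 at 4 hr, with Rfc2 lowest at -0.93 and Pcna highest at 1.03. At 24 hr 7 were higher and 3 lower with KBrO3, and 10 higher and 1 lower with co-exposure, to be read against the same shares of all probes. Fen1, the flap endonuclease, was highest with co-exposure at 1.24. Lig1, which seals the long-patch product as Lig3 seals the short one, was called lower at 4 hr with KBrO3 (-0.27) and co-exposure (-0.78) and not called at 24 hr (-0.08 and -0.01). With BPA alone 0 genes of the 3 lists were called at either time, where 4.24% and 3.41% of all probes were. The wider spread of set 2 limits this comparison as well.

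RefSeq promoter windows (build GRCm38.p6, 250 bases before to 50 after the start) were on hand for 7 of the 9 genes, with 2 windows for Aptx and so 8 in all. Each of 5 letter patterns was searched on both strands, and the share of all 32851 windows that hold each is given beside the members. CACGTG, the E-box palindrome, was in 4 of 8 member windows and in 7.15% of all. GGGCGG, the GC box, was in 6 of 8 and in 35.7%. TGACGTCA, the cyclic AMP response element, was in 1 of 8 and in 1.79%, TTTNNCGC in 1 of 8 and in 5.17%, and TGACNNNGC in 0 of 8 and in 12.4%. Overlapping matches were allowed, and GGGCGG or CACGTG matches did not overlap in the stretches shown. These matches are descriptions of sequence and were not tested against the levels.

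The stretches of 250 bases before the start are given for Apex1, which rose at both times, and for Parp1 and Parp2, which fell and then rose, with CACGTG and GGGCGG in capitals. Apex1 lies at chr14:50924699-50924948, Parp1 at chr1:180568641-180568890 and Parp2 at chr14:50807666-50807915, all on the plus strand. A capital run reading CCGCCC is GGGCGG on the other strand.
Apex1 promoter: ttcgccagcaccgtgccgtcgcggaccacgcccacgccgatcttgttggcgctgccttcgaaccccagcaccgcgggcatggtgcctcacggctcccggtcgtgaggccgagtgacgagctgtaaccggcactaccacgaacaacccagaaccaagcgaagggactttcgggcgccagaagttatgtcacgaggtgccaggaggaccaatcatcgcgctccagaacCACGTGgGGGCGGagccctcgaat
Parp1 promoter: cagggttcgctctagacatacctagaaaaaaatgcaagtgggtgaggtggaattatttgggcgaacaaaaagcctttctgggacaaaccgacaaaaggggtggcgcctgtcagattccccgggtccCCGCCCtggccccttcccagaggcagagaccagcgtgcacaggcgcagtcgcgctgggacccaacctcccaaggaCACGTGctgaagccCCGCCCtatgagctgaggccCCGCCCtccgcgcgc
Parp2 promoter: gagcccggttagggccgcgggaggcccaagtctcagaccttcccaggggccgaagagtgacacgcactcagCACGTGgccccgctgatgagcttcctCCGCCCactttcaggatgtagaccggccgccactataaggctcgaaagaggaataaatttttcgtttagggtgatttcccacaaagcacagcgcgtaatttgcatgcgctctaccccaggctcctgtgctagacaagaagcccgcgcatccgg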

How the data were processed

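Total RNA of 24 samples was hybridized to Agilent 1-color arrays (Cy3), 15 in set 1 and 9 in set 2. The authors deposited scanner output whose intensity values came from Agilent Feature Extraction (version 9.5.3.1 on build mm7 in set 1 and 12.0.0.7 on build mm9 in set 2, per the file headers, whereas the submitters' processing notes name 12.0), background-subtracted and detrended but not normalized between arrays, and a series table that held the same values (1080432 of 1080432 equal within a relative tolerance of 1e-09). Here the processed intensity was taken to log2, the 75th percentile of each array was subtracted, control spots and outlier spots were left out, and spots of 1 probe were averaged. Sets were fitted apart with limma 3.58.1 in R 4.3.3 (lmFit, eBayes), with Benjamini-Hochberg adjustment over all probes tested, namely probes well above background on all 3 arrays of at least 1 group of the set. The difference of BPA effects used both sets with set-wise weights. Every probe of the 9 genes is reported, and for the pathway lists 1 probe per gene. Members and lists were chosen with earlier results of these data known. The labels give 3 replicates per group, and the number of arrays limits the precision. Alternatives were other scalings, normexp background correction (offset 50, on the mean signal in set 1 and the median signal in set 2), other filters and fits, slide or replicate blocks, and leaving out each array. Scripts were tested on simulated data.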

Additional observations from a re-analysis of the deposited data

Results flagged for a closer look

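The difference between co-exposure and KBrO3 alone changed from 4 to 24 hr in 3 of 16 probes, as tested by the interaction in limma, where 54.3% of all probes were called. The count was 11 with median scaling and 10 without co-exposure replicate 3 at 24 hr. For Polb A_52_P612693 the change was -0.98 (-0.97631, adjusted p = 8.8e-05), from 0.57 at 4 hr to -0.40 at 24 hr. For Lig3 A_51_P261146 it was -0.55 (adjusted p = 0.00204), from 0.76 to 0.21, and the call was lost with median scaling (-0.24, adjusted p = 0.112), with normexp background correction (-0.25, adjusted p = 0.894) and with all 24 arrays in 1 fit (adjusted p = 0.0875). The 24 hr value, not called as fitted, was called with slide as a fixed block (0.14, adjusted p = 0.0450) or a random block (0.17, adjusted p = 0.0258) and with median scaling (0.38, adjusted p = 0.00322). For Tdp1 A_51_P248644 it was 0.21 (adjusted p = 0.0484), from 0.03 to 0.24, and the call was lost with normexp background correction (adjusted p = 0.728), all 24 arrays in 1 fit (adjusted p = 0.313), slide as a random block (adjusted p = 0.0728), the replicate block (adjusted p = 0.0773) and without any of 10 of the 12 arrays compared.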

How the results depend on the processing

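Over all alternatives, 3908 of 4117 values kept direction and side of the threshold, 139 lost a call, 64 gained one and 6 reversed. Of these values, 1536 came from leaving out 1 array. The deposited table (208) and keeping outlier spots (208) could not change a member's level, so the total overstates agreement. With normexp 171 of 208 values were unchanged, and in the fit of all 24 arrays 172 of 208. With the Bonferroni rule of the Methods the counts of called probes were 4 (KBrO3, 4 hr), 4 (co-exposure, 4 hr), 3 (KBrO3, 24 hr), 6 (co-exposure, 24 hr), 0 and 0 (co-exposure against KBrO3), 8 and 8 (24 against 4 hr) and 0 (change of the difference). For co-exposure against KBrO3 at 4 hr the count was 6 with median scaling (3 higher, 3 lower), 2 with normexp and 2 with all 24 arrays in 1 fit, and at 24 hr it was 4 with normexp, 4 with only the arrays compared and 1 with all 24 arrays. For the change of the difference it was 11 with median scaling (10 higher, 1 lower), 1 with normexp and 1 with all 24 arrays. With all 24 arrays, BPA alone at 4 hr gave 3 and the difference of BPA effects at 4 hr gave 1. The cause of these shifts was not tested. Leaving out 1 array gave 13 to 14 probes for KBrO3 at 4 hr, 13 for co-exposure at 4 hr, 10 to 12 for KBrO3 and 14 for co-exposure at 24 hr, 7 to 10 and 7 to 11 for co-exposure against KBrO3 at 4 and 24 hr, 14 for KBrO3 and 13 to 14 for co-exposure between times, 2 to 10 for the change of the difference, 0 for BPA alone, and 0 to 2 at 4 hr and 0 at 24 hr for the difference of BPA effects.

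Reversed values were Lig3 A_51_P261146 with KBrO3 at 24 hr (-0.17, normexp), Lig3 A_52_P4937 with co-exposure at 24 hr (-0.064, normexp), Polb A_52_P129140 from 4 to 24 hr with KBrO3 (-0.0029, normexp), and with median scaling Parp1 A_51_P314277 for co-exposure against KBrO3 at 24 hr (0.017), Polb A_52_P612693 from 4 to 24 hr with co-exposure (0.14) and the change of the difference of Apex1 (0.30, adjusted p = 0.0175). Normexp moved the median over all probes with KBrO3 at 24 hr from -0.02 to -0.52. Same-numbered arrays did not all deviate together (mean r = -0.03 over 30 pairs in set 1, from -0.212 to 0.106, and 0.002 over 9 in set 2, from -0.384 to 0.648 with 3 over 0.1), so the numbers were not taken as pairs. With the replicate block 206 of 208 values were unchanged in call, and Lig3 A_52_P4937 for co-exposure against KBrO3 at 24 hr (0.18, adjusted p = 0.0727) and the change for Tdp1 A_51_P248644 (0.21, adjusted p = 0.0773) lost theirs. Differences within the wide intervals of set 2 could not be resolved.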
